A study of Mus musculus with 31 samples.

Results

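The Zic genes encode zinc finger transcription factors, and 4 of them, Zic1, Zic2, Zic4 and Zic5, were followed in the adult mouse thalamus out of 25497 genes quantified. They were chosen by family membership together with their levels in the groups compared here, so their levels and fold changes are given as a description and without p-values. The tissue was the thalamus of offspring at postnatal day 90, measured by RNA-seq of polyadenylated RNA in 31 libraries. SIR offspring had mothers kept under social isolation rearing, and control offspring did not. The libraries came from 8 SIR females, 8 control females, 7 SIR males and 8 control males, and the question the design puts is whether the housing of the mother changed gene expression in her adult sons and daughters. Strain, litter and batch are not named in the labels, and each library was counted as 1 animal, so p-values measure the spread between these libraries only. Other Zic genes were not analysed here.

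Zic proteins carry a run of C2H2 zinc fingers related to those of the Gli proteins, and they act as transcription factors or as cofactors of other factors in Hedgehog and Wnt signalling. They are known chiefly from the early nervous system, where they take part in neural tube closure, in the formation of the forebrain midline and in the dorsal neural tube, and some neurons, cerebellar granule neurons among them, keep transcribing Zic genes in the adult. Zic1 is best known for its part in cerebellar development and Zic2 for its part in the forebrain midline, where its loss causes holoprosencephaly in humans and mice. Zic4 lies head to head with Zic1, and deletions that remove both genes have been linked to Dandy-Walker malformation in humans. Zic5 lies head to head with Zic2 and takes part in neural tube closure in mice.

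The zinc finger region is where the coding sequences of the family are most alike, so a stretch of it is shown to let the likeness of the transcripts be judged. Each line gives 90 bases of the coding sequence of the leading transcript from GENCODE release M21, and capitals mark the bases that differ from Zic1. The window was the in-frame stretch with the highest summed identity to Zic1, found at coding bases 730 to 819 of Zic1, 820 to 909 of Zic2, 457 to 546 of Zic4 and 1174 to 1263 of Zic5.
Zic1: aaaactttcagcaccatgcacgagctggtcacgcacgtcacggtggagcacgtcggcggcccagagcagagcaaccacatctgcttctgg
Zic2: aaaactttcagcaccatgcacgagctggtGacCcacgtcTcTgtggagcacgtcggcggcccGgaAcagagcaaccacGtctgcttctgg
Zic4: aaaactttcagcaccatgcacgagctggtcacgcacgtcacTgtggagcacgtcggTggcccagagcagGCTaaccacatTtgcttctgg
Zic5: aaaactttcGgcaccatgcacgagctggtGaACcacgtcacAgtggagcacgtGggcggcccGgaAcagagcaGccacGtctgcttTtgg
In this window 92.2% of the bases of Zic2, 93.3% of Zic4 and 87.8% of Zic5 were identical to Zic1. Over whole coding sequences the longest identical run was 42 bases between Zic1 and Zic4 and 35 bases between Zic1 and Zic2, and the other 4 pairs shared runs of 20 to 30 bases. Of 5677 sequences of 31 bases in Zic1 transcripts, 13 (0.229%) also occurred in Zic4 transcripts on the same strand and 9 (0.159%) in Zic2 transcripts. Zic5 shared no such sequence with the other 3 genes. Nearly all sequences of this length in each gene were thus not shared with the other 3.

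The genes form 2 divergent pairs. On chromosome 9, Zic1 runs on the minus strand and Zic4 on the plus strand, and their annotated spans overlap by 3398 bases. The exons overlap by 60 bases only, in 1 Zic4 transcript (Zic4-208), and 33 sequences of 31 bases (0.581% of those of Zic1) occur on opposite strands of the 2 genes. The library kit marks strand, but no source says that the strand was used in counting, so reads from those bases cannot be assigned with certainty. On chromosome 14, Zic5 runs on the minus strand and Zic2 on the plus strand, with 9757 bases between their annotated ends.

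RefSeq promoter windows, from 250 bases before to 50 bases after the start in build GRCm38.p6, were found for Zic1, Zic4 and Zic5 but not for Zic2. They are shown because the Zic genes varied together across the libraries, whether or not they are neighbours. Capitals mark CCAAT and GGGCGG, the letters of the CCAAT box and of a GC box, on either strand. The windows lie at chr9:91365719-91366018 (minus strand) for Zic1, chr9:91368722-91369021 (plus strand) for Zic4 and chr14:122465609-122465908 (minus strand) for Zic5.
Zic1: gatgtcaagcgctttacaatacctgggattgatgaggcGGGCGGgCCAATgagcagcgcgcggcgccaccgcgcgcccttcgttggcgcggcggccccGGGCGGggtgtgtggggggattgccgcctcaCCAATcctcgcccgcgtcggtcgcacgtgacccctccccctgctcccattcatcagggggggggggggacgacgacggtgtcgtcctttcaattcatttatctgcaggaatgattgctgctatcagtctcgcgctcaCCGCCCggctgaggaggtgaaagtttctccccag
Zic4: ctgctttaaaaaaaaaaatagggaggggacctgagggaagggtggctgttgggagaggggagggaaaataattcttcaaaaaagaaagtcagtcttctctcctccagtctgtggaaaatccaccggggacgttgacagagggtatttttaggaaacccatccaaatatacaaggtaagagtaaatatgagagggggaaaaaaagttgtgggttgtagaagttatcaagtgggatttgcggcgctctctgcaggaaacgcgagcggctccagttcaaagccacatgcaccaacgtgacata
Zic5: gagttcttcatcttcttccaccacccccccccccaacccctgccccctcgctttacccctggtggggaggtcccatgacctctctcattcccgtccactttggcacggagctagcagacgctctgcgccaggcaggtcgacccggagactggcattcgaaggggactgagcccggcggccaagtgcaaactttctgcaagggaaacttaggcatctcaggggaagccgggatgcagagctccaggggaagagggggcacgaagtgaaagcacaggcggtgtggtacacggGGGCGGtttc
The Zic1 window held 2 CCAAT and 3 GGGCGG matches, the Zic5 window held 1 GGGCGG match, and the Zic4 window held neither. Of all 32851 promoter windows of this length, 37.4% held CCAAT and 35.7% held GGGCGG on either strand. The letters GGGTGGTC, which Zic and Gli proteins are reported to bind, were in none of the 3 windows and in 0.807% of all windows. The windows of Zic1 and Zic5 were rich in G and C (65.3% and 62.7%), and that of Zic4 was not (46.0%), against a median of 52.7%. The count of CG dinucleotides was 31 for Zic1, 8 for Zic4 and 15 for Zic5, against a median of 7.

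Library totals ran from 13 to 25.74 M (mega) estimated counts, with a median of 23.28 M, and the shallowest libraries were control female 31 and control male 23. Of the 25497 genes, 14886 had enough counts to be tested. Y-linked Ddx3y, a sex check, stood at 31.5 to 50.2 CPM (counts-per-million) in the 15 libraries labelled male and at 0 to 0.0481 CPM in 15 of the 16 labelled female. At 41.6 CPM, the library labelled SIR female 5 goes against its label, and several results of the Zic genes are also given without it. Results of other genes are given with it. Calls reported below that were lost without it include those of Tal1 and Barhl1 in females and of Ep300 and Nrcam over both sexes. Every SIR library carries a lower number than every control library, so handling by number range and housing cannot be told apart. Of the 31 libraries, 8 carry numbers that lie apart from the rest (2 SIR females, 1 SIR male, 3 control females and 2 control males), and results are also given without them.

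All 4 genes were transcribed in every library, at levels that differed widely between members. Per length, the mean level over the 31 libraries was 132 TPM (transcripts-per-million) for Zic1, 49.8 TPM for Zic2, 13.1 TPM for Zic4 and 6.25 TPM for Zic5. Zic1 stood above 91.3% of the genes tested and Zic2 above 76.0%, while Zic4 stood above 43.8% and Zic5 above 29.5%. The estimated counts behind these values ran from 1976 to 7244 per library for Zic1, from 481 to 2307 for Zic2, from 80 to 589 for Zic4 and from 33 to 435 for Zic5. The values of Zic5 thus had the widest counting error of the family.

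**Figure D1:**
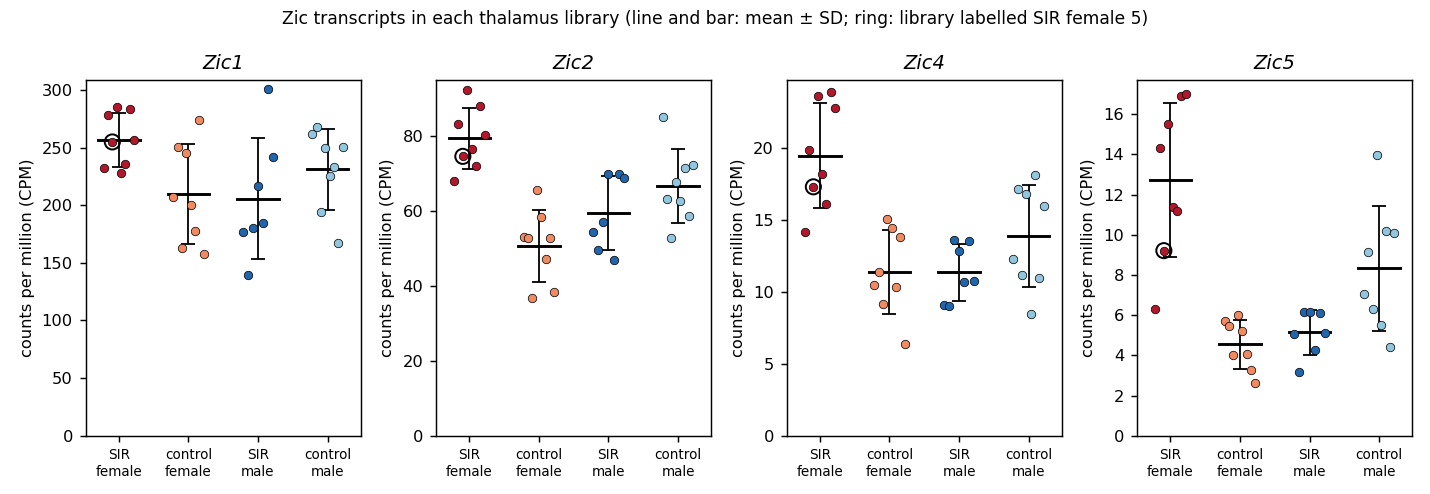
Level of each Zic gene in each of the 31 thalamus libraries, in CPM on TMM-scaled totals with a linear axis from 0, with 1 point per library, a line and bar for the mean ± SD, and a ring around the library labelled SIR female 5. For Zic2 and Zic5 every SIR female lies above every control female, while the SIR males overlap the control males for all 4 genes. The share of all genes that separate in this way was not counted.

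Zic1, the most abundant member, was somewhat higher in SIR females and somewhat lower in SIR males. In females its lowest, median and highest levels were 228, 256 and 285 CPM with SIR mothers and 158, 204 and 274 CPM with control mothers. All 8 SIR females lay above the control median, but the groups overlapped, and the control females were the more scattered group (SD 43.2 CPM, against 23.4 in SIR females, n = 8 each). In males the lowest, median and highest levels were 140, 185 and 301 CPM with SIR mothers and 167, 242 and 268 CPM with control mothers. The SIR males held both the lowest and the highest of these 15 values, and 5 of the 7 lay below the control median.

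Zic2, whose product patterns the forebrain midline, separated the females completely. Its lowest, median and highest levels were 68.1, 78.5 and 92.4 CPM in SIR females and 36.8, 52.8 and 65.7 CPM in control females. Each of the 8 SIR females lay above the highest control female, with means of 79.5 ± 8.21 CPM in SIR females and 50.7 ± 9.69 CPM in control females (SD, n = 8 each). How many of all genes separate 2 groups completely was not counted. This separation and those described below are thus no result about the members, which were chosen with these levels. In males the lowest, median and highest levels were 47.0, 57.0 and 69.96 CPM with SIR mothers and 52.97, 65.6 and 85.3 CPM with control mothers. These male groups overlapped over most of their range, and 4 of 7 SIR males lay below the control median.

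Zic4, the divergent neighbour of Zic1, was less abundant than Zic2 and nearly separated the females. Its lowest, median and highest levels were 14.1, 19 and 23.9 CPM in SIR females and 6.40, 10.9 and 15.1 CPM in control females. Of the 8 SIR females, 7 lay above every control female. In males the levels were 9.05, 10.8 and 13.6 CPM with SIR mothers and 8.47, 14.1 and 18.1 CPM with control mothers. All 7 SIR males lay below the control median, inside the range of the controls.

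Zic5, the divergent neighbour of Zic2 and the least abundant member, showed the widest gap as a ratio of group means in both sexes. Its lowest, median and highest levels were 6.29, 12.9 and 17 CPM in SIR females and 2.64, 4.66 and 5.997 CPM in control females. The female groups did not overlap, and their means were 12.7 ± 3.85 CPM with SIR mothers and 4.55 ± 1.23 CPM with control mothers (SD, n = 8 each). In males the levels were 3.17, 5.11 and 6.18 CPM with SIR mothers and 4.40, 8.10 and 13.95 CPM with control mothers. All 7 SIR males lay below the control median, and 2 of them below every control male.

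The library labelled SIR female 5 sat among the other SIR females for each gene, at 255 CPM for Zic1, 74.7 for Zic2, 17.3 for Zic4 and 9.21 for Zic5. For Zic2, Zic4 and Zic5 it lay above the highest SIR male, and for Zic1 within the range of the SIR males.

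The sexes stood in opposite order with and without SIR mothers. Among SIR offspring, all 8 females lay above all 7 males for Zic4 and Zic5, and 7 of 8 did so for Zic2, with mean levels 1.71, 2.47 and 1.33 times those of the SIR males. Among controls, the females were the lower sex, at 0.546 times the male mean for Zic5, 0.759 for Zic2, 0.821 for Zic4 and 0.907 for Zic1. Without the library labelled SIR female 5, the other 7 SIR females all lay above the SIR males for Zic4 and Zic5 and 6 of 7 for Zic2, at 1.74, 2.57 and 1.35 times the SIR male means. For Zic5 all 8 control females lay below the control male median. In CPM the order of the 4 group means for Zic2 and Zic5 was SIR females, control males, SIR males and control females, and for Zic1 and Zic4 the last 2 changed places. Groups next to each other in these orders overlapped in range for every gene. In bulk tissue, fewer cells of a type and less RNA per cell cannot be told apart.

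Fitted with edgeR across all genes, the difference between SIR and control females was a log2 fold change of 0.29 ± 0.13 (SE) for Zic1, 0.65 ± 0.11 for Zic2, 0.76 ± 0.16 for Zic4 and 1.47 ± 0.22 for Zic5. These are 1.22-fold, 1.56-fold, 1.70-fold and 2.77-fold higher levels in SIR females. At an adjusted p under 0.05, Zic2, Zic4 and Zic5 were among the genes called higher, which made up 2.38% of all genes tested (4.62% in either direction). The choice of the members used this contrast, so their number there is no result. Without the 8 libraries whose numbers lie apart, 45 genes were called in females, and Zic5 alone of the 4 was among them, at a fold change of 1.36 on the log2 scale.

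In males each fitted difference pointed down, by -0.17 ± 0.13 for Zic1, -0.17 ± 0.11 for Zic2, -0.29 ± 0.16 for Zic4 and -0.70 ± 0.23 for Zic5 on the log2 scale. SIR males thus held 0.891, 0.891, 0.818 and 0.616 times the levels of control males. None of the 4 was called, where 1.33% of all genes were, and 2622 genes had an unadjusted p under 0.05. Zic5 was called lower in males without the 8 libraries whose numbers lie apart (-0.76) and without control male 27 (-0.79). In these fits 542 and 506 genes were called in males, against 198 with all libraries, so the calls of Zic5 there are no result about the gene. Averaged over both sexes the differences were 0.06 ± 0.09, 0.24 ± 0.08, 0.24 ± 0.11 and 0.39 ± 0.16, with none of the 4 called, where 4.55% of all genes were (3283 at an unadjusted p under 0.05).

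The female difference exceeded the male one by 0.46 ± 0.18 for Zic1, 0.81 ± 0.16 for Zic2, 1.06 ± 0.23 for Zic4 and 2.17 ± 0.31 for Zic5 on the log2 scale, which for Zic5 is a 4.49-fold difference between the effects. Zic2, Zic4 and Zic5 were among the 1.75% of all genes called with a positive interaction (2.83% in either direction). The choice of the members used the levels in all 4 groups, so their number here is no result either. On log2(TPM + 1) Zic4 was not called for the interaction (0.88) or in females (0.61), while Zic2 and Zic5 were called in both. The order of size from Zic1 to Zic5 was the same in females and in the interaction, and it ran against the order of abundance. The median over the 4 genes was 0.71 in females, -0.23 in males and 0.93 for the interaction, against medians of -0.01, 0.00 and 0.00 over all genes tested. The medians of the 4 genes come from the levels that chose them and were not tested. Without the library labelled SIR female 5 the female differences were 0.29, 0.66, 0.79 and 1.53.

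**Figure D2:**
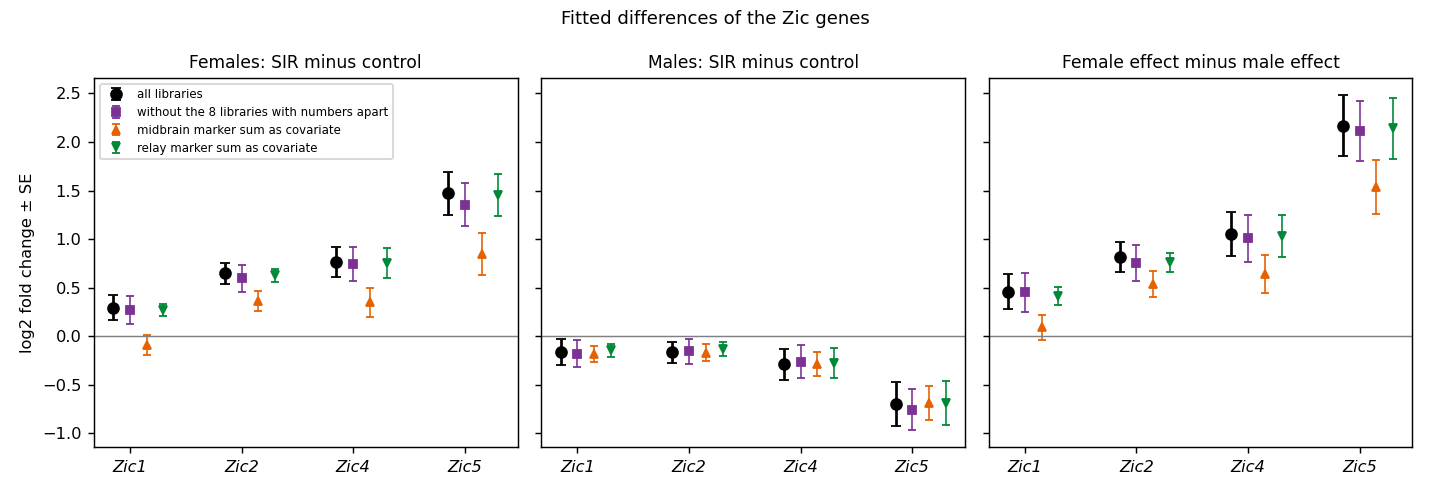
Fitted log2 fold changes ± SE of SIR minus control in females, in males, and of the female minus the male difference, with all libraries, without the 8 libraries whose numbers lie apart, and with the summed midbrain or relay neuron markers as a covariate. The female differences climb from Zic1 (0.29) to Zic5 (1.47) with all libraries, and the midbrain sum lowers each of them.

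On the TPM scale, which is set per transcript length, the female groups of Zic2 and Zic5 overlapped slightly, with 7 of 8 SIR females above every control female for each gene. Mean TPM was 61.4 ± 7.07 in SIR females and 39.3 ± 8.29 in control females for Zic2, and 10.1 ± 2.61 and 4.24 ± 1.02 for Zic5 in the same groups (SD, n = 8 each). For Zic4 only 2 of 8 SIR females lay above every control female, at means of 16.95 ± 2.79 TPM in SIR females and 11.6 ± 4.76 TPM in control females. The short annotated transcript Zic4-208, which overlaps a Zic1 exon, held 3.05 ± 1.11 TPM in SIR females and 3.23 ± 3.30 TPM in control females. It is the Zic4 transcript with the widest spread in control females, although it took a mean of only 7.03 estimated counts per library.

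The make-up of the family differed in the same direction. Zic1 supplied 62.3 ± 3.33% of the summed TPM of the 4 genes in SIR females and 68.2 ± 3.23% in control females, and Zic5 supplied 4.26 ± 0.857% and 2.49 ± 0.585% in the same groups (SD, n = 8 each). In males Zic1 supplied 67.4 ± 3.10% with SIR mothers (n = 7) and 65.0 ± 4.45% with control mothers (n = 8), and Zic5 2.23 ± 0.440% and 2.99 ± 1.04%. The mean share of Zic2 lay between 22.8% and 26.2% in the 4 groups. These shares come from the levels that chose the genes and were not tested.

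Most Zic RNA came from few transcripts. Zic1-201 and Zic1-202, both coding, took means of 3197 and 1805 estimated counts per library, and Zic2-201 took 1450 of the Zic2 counts. Zic4 was spread over 12 annotated transcripts, led by the coding Zic4-201 (162 counts) and followed by a retained-intron transcript (65.8) and the processed transcript Zic4-202 (46.1). Zic5-201, the coding transcript, took 155 counts and the processed transcript Zic5-202 took 22.9.

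The share of the leading transcript within each gene was not used to choose the genes and could be tested. For Zic5, Zic5-201 took 87.1 ± 3.10% of the counts in SIR females and 81.6 ± 6.98% in control females (SD, n = 8 each), a difference of 5.46 percentage points (exact two-sided permutation p = 0.0657, adjusted p = 0.504 over 9 tests). In males it took 86.7 ± 3.27% with SIR mothers (n = 7) and 89.1 ± 6.04% with control mothers (n = 8), an exact permutation p of 0.366 and an adjusted p of 0.517. Zic1-201 took 61.8 ± 4.95% in SIR females and 63.9 ± 5.94% in control females, and Zic4-201 took 52.0 ± 3% in SIR females and 48.4 ± 6.97% in control females. None of the 9 tests passed, with adjusted permutation p-values of 0.504 to 0.525, and differences of these sizes lay within the spread between libraries. Without the library labelled SIR female 5, the female difference for Zic5-201 was 6.31 points (exact permutation p = 0.0404, adjusted p = 0.364).

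**Figure D3:**
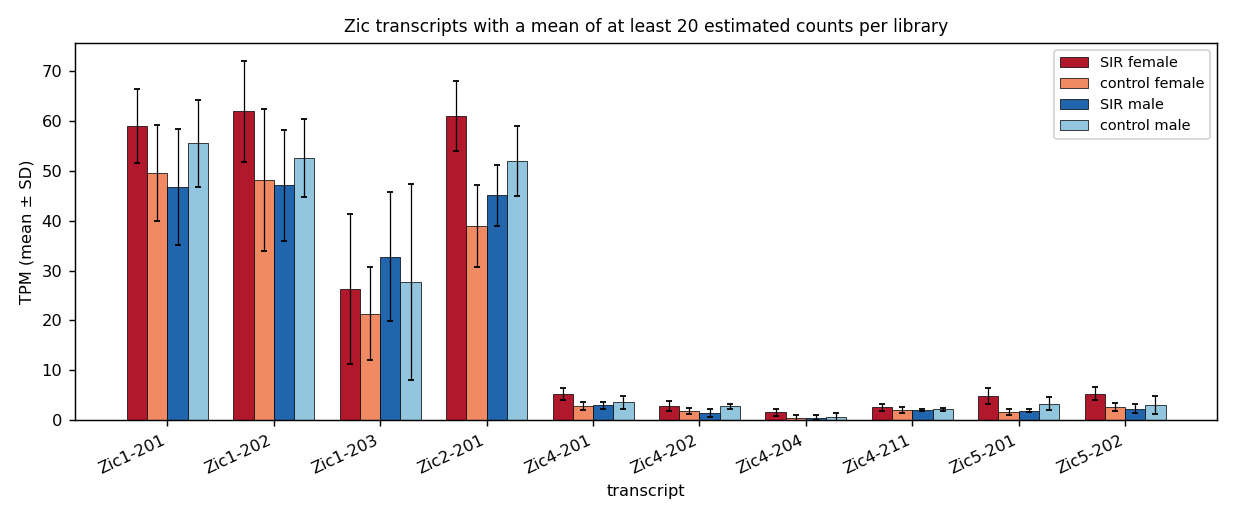
Mean TPM ± SD of the Zic transcripts with at least 20 estimated counts per library on average, by group, on a linear axis from 0. Zic2-201 stands at 61.1 TPM in SIR females and 39.0 TPM in control females, while the short processed transcript Zic1-203 has the largest SD in 3 of the 4 groups.

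The TPM of the leading transcripts followed the gene totals. Zic5-201 held 4.80 ± 1.601 TPM in SIR females, 1.63 ± 0.554 in control females, 1.88 ± 0.371 in SIR males and 3.25 ± 1.35 in control males. Zic4-204, a coding transcript, held 1.495 ± 0.791 TPM in SIR females and 0.400 ± 0.651 in control females, and was above 0 in only 19 of the 31 libraries. Zic4-202 held 1.34 ± 0.783 TPM in SIR males and 2.71 ± 0.441 in control males, a difference that was not tested. Zic1-203 ran against its gene total in males, at 32.8 ± 12.97 TPM in SIR males and 27.7 ± 19.7 in control males, against lower values in SIR males for both coding Zic1 transcripts. Some Zic4 transcripts with few counts also ran against their gene total, Zic4-208 in females among them.

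Libraries of the same group also differed in Zic levels, and the 4 genes varied together. After group means were removed from log2(CPM + 1), Pearson's r over the 31 libraries was highest for Zic4 with Zic5 (0.788, Spearman's rho 0.781) and for Zic1 with Zic2 (0.766, rho 0.787). Each had an adjusted permutation p of 6e-05 over the 6 pairs, and the raw p of the first pair was 1e-05, the smallest that 100000 permutations can give. The other 4 pairs had r of 0.671 for Zic2 with Zic4, 0.632 for Zic1 with Zic4, 0.605 for Zic2 with Zic5 and 0.549 for Zic1 with Zic5 (raw permutation p 0.00017 to 0.00069, adjusted 0.000285 to 0.00069). Spearman's rho for these 4 was 0.702, 0.671, 0.662 and 0.544.

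The tightest pairs were therefore not the neighbours on a chromosome, Zic1 with Zic4 and Zic2 with Zic5, although the difference between the correlations was not tested. Without the 2 libraries farthest from the median of the first gene, r was 0.756 for Zic4 with Zic5, 0.728 for Zic1 with Zic2 and 0.443 to 0.585 for the other pairs. Within single groups r ran from 0.366 (Zic2 with Zic4 in control males) to 0.939 (the same pair in SIR females), and all 24 values were positive. These points share their library, its depth and its scaling factor.

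**Figure D4:**
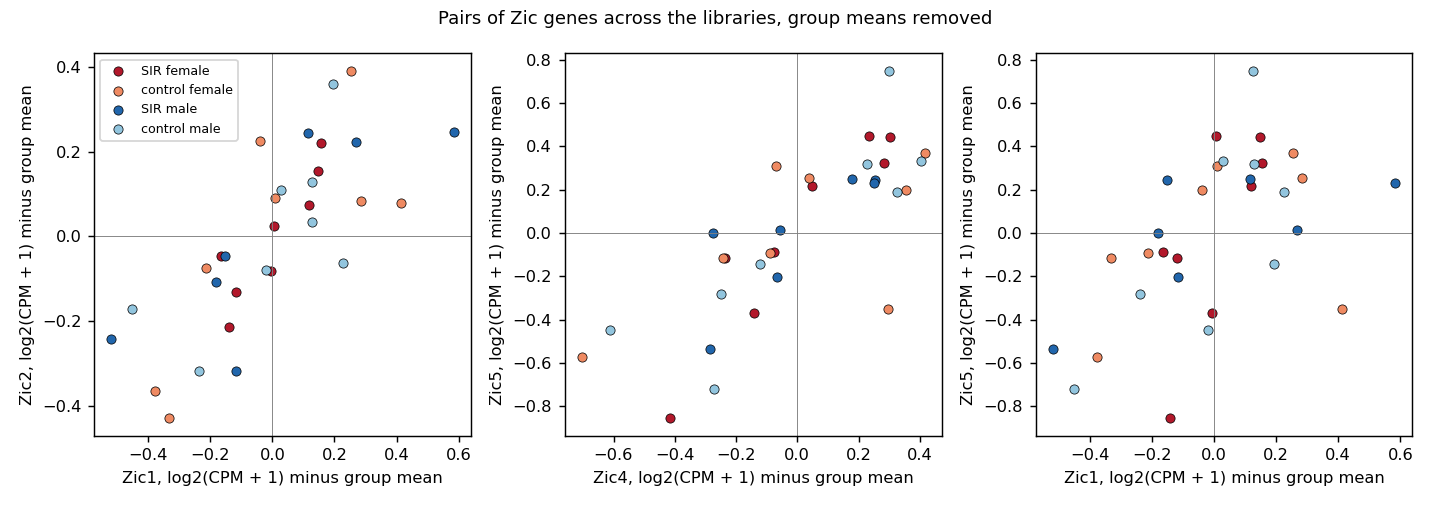
Deviations of single libraries from their group mean for 3 pairs of Zic genes, in log2(CPM + 1), with 1 point per library coloured by group. Libraries high in Zic4 were high in Zic5 (r = 0.788) and libraries high in Zic1 were high in Zic2 (r = 0.766), while Zic1 and Zic5 were less closely tied (r = 0.549).

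By likeness over all 14051 genes with a proper symbol, Zic4 and Zic5 stood among the 5 genes most like each other, while Zic1 and Zic2 had other genes ahead of them. Across the 31 libraries with group means removed, Zic5 was the gene most like Zic4 (Spearman's rho 0.781), ahead of the potassium channel subunit gene Kcns2 (0.758), Triobp (0.747), Kctd6 (0.735) and Necab1 (0.733). For Zic5, Fam81a came first (0.808), then Zic4 (0.781), Gstm7 (0.759), the T cell receptor chain gene Cd247 (0.744) and the cold-sensing channel gene Trpm8 (0.742). Zic1 was most like Zmat4 (0.932), Rcsd1 (0.931), Rgs3 (0.924), the synaptic release gene Rims2 (0.920) and the potassium channel gene Kcnj3 (0.917), and Zic2 came at rank 136 (0.787). Among the 5 genes most like Zic2 were Lztr1 (0.928), Stum (0.892), Nrbp2 (0.880) and Prkch (0.875), with Zic1 at rank 51. These ranks describe co-variation between libraries and were not tested.

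Dissections of the thalamus can differ in which nuclei and which neighbouring tissue they hold, so the Zic genes were set against 16 lists of markers of cell types and regions. Each list was summed in CPM, and its correlation with each Zic gene was taken after group means were removed. Of these 64 relations, 16 had an adjusted permutation p under 0.05, 4 positive and 12 negative.

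The 4 genes shared a negative relation to markers of midbrain and pretectum, a list that holds transcription factor genes such as Pax7 and Tal1 and the dopamine transporter gene Slc6a3. Pearson's r was -0.773 for Zic1, -0.654 for Zic2, -0.662 for Zic4 and -0.650 for Zic5, with rho of -0.785, -0.750, -0.696 and -0.711. The raw permutation p-values were 1e-05, 0.00067, 0.0001 and 1e-05, and the adjusted ones 0.000128, 0.00429, 0.0008 and 0.000128. Leaving out the 2 libraries farthest from the median of the list gave r of -0.830, -0.701, -0.672 and -0.737. Libraries with more midbrain RNA than their group's mean thus tended to hold less RNA of each Zic gene.

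The midbrain markers also differed between the groups. Their sum had a lowest, median and highest of 13.5, 17.4 and 28.6 CPM in SIR females and 22.3, 31.7 and 101 CPM in control females. In males the values were 16.2, 28.4 and 46.6 CPM with SIR mothers and 24.03, 27.9 and 44.7 CPM with control mothers. Of the 14 markers 11 were tested, and 4 were lower in SIR females, where 2.24% of all genes were called lower. Among them were Pax7 (log2 fold change -5.17, adjusted p = 0.00716), Slc6a3 (-4.52, 0.00655) and Tal1 (-1.26, 0.0397; edgeR's quasi-likelihood test with Benjamini-Hochberg adjustment). None of these 3 was called without the 8 libraries apart (edgeR adjusted p 0.0985 to 0.376), and the fold change of Slc6a3 was -1.71. None of the list was called in males. The median over the 11 was -1.26 in females and 0.00 in males, and the serotonin transporter gene Slc6a4 was near 0 in each group (0.0112 to 0.0494 CPM on average).

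With the logarithm of this sum as a covariate, the female differences were -0.09 ± 0.10 for Zic1, 0.37 ± 0.10 for Zic2, 0.35 ± 0.15 for Zic4 and 0.85 ± 0.22 for Zic5 on the log2 scale. Each was smaller than without the covariate, and for Zic1 the sign turned. The male differences hardly moved, at -0.18 ± 0.08, -0.17 ± 0.09, -0.29 ± 0.12 and -0.69 ± 0.17. The excess of the female over the male difference was 0.09 ± 0.13 for Zic1, 0.54 ± 0.13 for Zic2, 0.64 ± 0.20 for Zic4 and 1.53 ± 0.28 for Zic5. With this covariate Zic5 alone of the 4 was among the genes called in females (and, lower, in males), and Zic2 and Zic5 were called for the interaction. With the summed relay neuron markers as a further covariate, the female differences were 0.08 ± 0.07, 0.50 ± 0.09, 0.32 ± 0.16 and 0.73 ± 0.22, and Zic2 alone of the 4 was called in females. Over both sexes Zic4 and Zic5 then had 0.01 each. The share of all genes called in these covariate fits was not counted, so the calls there are no result about the members. This midbrain covariate was added after the data had been seen, and it differs between the groups, so what it takes up of the housing difference cannot be told apart from tissue make-up.

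The summed markers of thalamic relay neurons followed Zic1 (r = 0.868, rho 0.837) and Zic2 (r = 0.770, rho 0.750) closely, each with a raw permutation p of 1e-05 and an adjusted p of 0.000128. For Zic4 (r = 0.343, rho 0.359, raw permutation p = 0.0682, adjusted 0.180) and Zic5 (r = 0.239, rho 0.267, raw permutation p = 0.154, adjusted 0.336) the relation did not pass, and the difference between these correlations was not tested. Without the 2 farthest libraries r was 0.825, 0.714, 0.264 and 0.205. The sum itself had medians of 5788 CPM in SIR females, 5594 CPM in control females, 5099 CPM in SIR males and 5849 CPM in control males, and as a covariate, added after the data had been seen, it left female differences of 0.27 ± 0.06, 0.63 ± 0.07, 0.75 ± 0.15 and 1.45 ± 0.22. In this fit each Zic gene was among the genes called in females, also Zic1, which no fit without a covariate called. The share of all genes called there was not counted, so these calls are no result about the members.

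**Figure D5:**
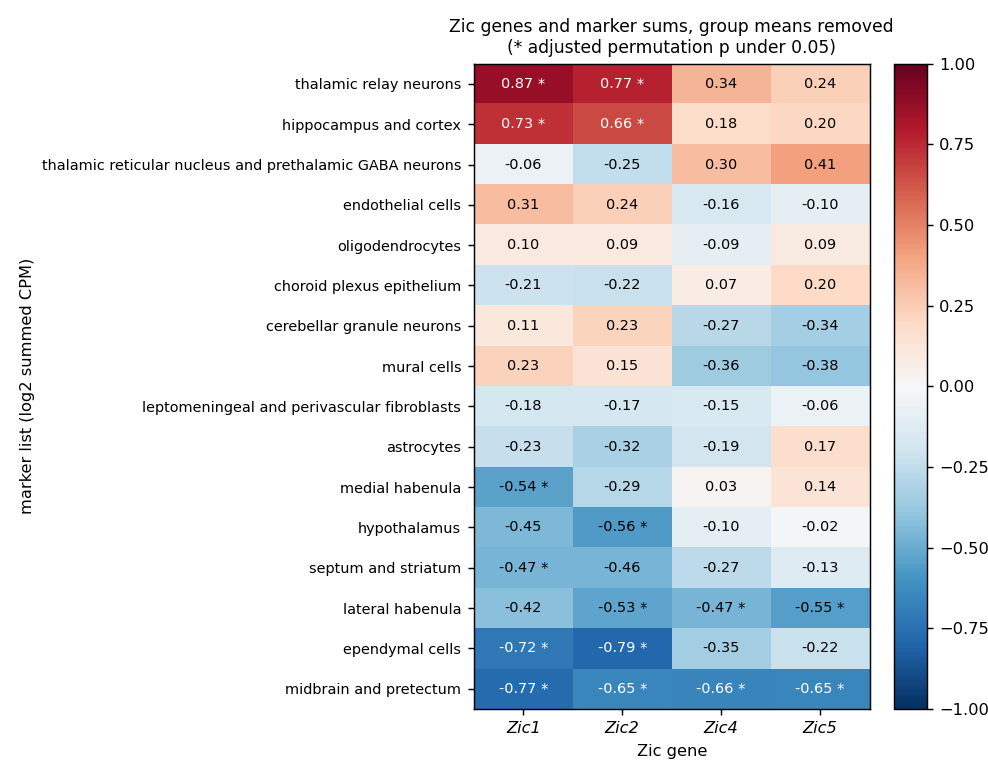
Pearson's r over the 31 libraries between each Zic gene in log2(CPM + 1) and the log2 summed CPM of each of 16 marker lists, group means removed, with a star where the permutation p adjusted over the 64 relations is under 0.05. The midbrain row is negative for all 4 genes, while the relay neuron row is strongly positive for Zic1 (0.87) and Zic2 (0.77) and did not pass for Zic4 and Zic5.

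Relay neuron markers did not move as one between the groups. Of 14 tested, 2 were higher in SIR females and 1 was lower in SIR males (2.38% of all genes were called higher in females and 1.05% lower in males). Necab1, which encodes a neuronal calcium-binding protein, had means of 231 CPM in SIR females and 130 CPM in control females (log2 fold change 0.83 ± 0.18, adjusted p = 0.00843, edgeR's quasi-likelihood test with Benjamini-Hochberg adjustment). In males it had 104 CPM with SIR mothers and 180 CPM with control mothers (-0.80 ± 0.19, edgeR adjusted p = 0.0317), and the effects differed between the sexes by 1.63 ± 0.26 (edgeR adjusted p = 0.000905). Gbx2, a homeobox gene of the developing thalamus, had 43.0 CPM in SIR females and 29.7 CPM in control females (0.53 ± 0.14, edgeR adjusted p = 0.0248), with an interaction of 0.95 ± 0.20 (edgeR adjusted p = 0.00725). Without the 8 libraries the female calls of Necab1 (0.81, edgeR adjusted p = 0.121) and Gbx2 (0.47, edgeR adjusted p = 0.326) were lost, while both interactions passed (edgeR adjusted p = 0.00597 and 0.0484). The male call of Necab1 was lost in 9 of the 31 fits without 1 library. The abundant relay markers Cplx1, Prkcd and Rora were not called in either sex. Necab1 is also among the 5 genes most like Zic4, and its direction in each sex is that of the Zic genes.

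Ependymal markers ran against Zic1 and Zic2, with r of -0.717 for Zic1 (rho -0.719) and -0.789 for Zic2 (rho -0.761). The raw permutation p-values were 6e-05 and 1e-05, and the adjusted ones 0.00064 and 0.000128. On TPM the relation to Zic1 did not pass (r = -0.436, adjusted permutation p = 0.112), while that to Zic2 did (r = -0.652, adjusted permutation p = 0.00256). For Zic4 (-0.351, rho -0.373, raw permutation p = 0.0622, adjusted 0.175) and Zic5 (-0.222, rho -0.258, raw permutation p = 0.197, adjusted 0.371) the relation did not pass. None of the 7 ependymal markers was called in females or in males. Their sum had medians of 27.9 CPM in SIR females, 26.4 CPM in control females, 38.7 CPM in SIR males and 31.1 CPM in control males.

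Relations to 5 more lists passed for some members. The hippocampus and cortex list followed Zic1 (r = 0.727, rho 0.697) and Zic2 (r = 0.658, rho 0.621), with adjusted permutation p-values of 0.00064 and 0.00348. Lateral habenula markers ran against Zic2 (r = -0.527, rho -0.491), Zic4 (-0.465, rho -0.293) and Zic5 (-0.553, rho -0.470), with adjusted permutation p-values of 0.0167, 0.0454 and 0.00785, but without the 2 farthest libraries r was -0.395, -0.143 and -0.306, so the relation to Zic4 rests on those libraries. Medial habenula markers ran against Zic1 (r = -0.536, rho -0.455, adjusted permutation p = 0.039), and so did septum and striatum markers (r = -0.467, rho -0.443, adjusted permutation p = 0.0433). Hypothalamus markers ran against Zic2 (r = -0.564, rho -0.532, adjusted permutation p = 0.0176). Without the 2 farthest libraries r was -0.292, -0.321 and -0.476. By rho, the relations of Zic4 to the lateral habenula (adjusted permutation p = 0.274) and of Zic1 to the medial habenula (0.0973) and to septum and striatum (0.0983) did not pass.

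With all libraries, no relation to any Zic gene passed for 8 of the 16 lists, namely cerebellar granule neurons, leptomeningeal and perivascular fibroblasts, mural cells, endothelial cells, choroid plexus epithelium, reticular and prethalamic GABA neurons, astrocytes and oligodendrocytes. Cerebellar granule neurons and leptomeningeal cells also transcribe Zic genes, so their values are given here. Without the 8 libraries whose numbers lie apart, granule neuron markers did follow Zic2 (n = 23, r = 0.639, rho 0.663, permutation p adjusted 0.0178 and 0.0269), and astrocyte markers ran against Zic2 (r = -0.644, adjusted permutation p = 0.0178) and Zic4 (r = -0.526, adjusted permutation p = 0.0271, though 0.22 by rho). On TPM the reticular and prethalamic list followed Zic5 (r = 0.600, rho 0.571, adjusted permutation p = 0.012 and 0.0159). The granule neuron marker Gabra6 averaged 0.616 CPM in SIR females, 0.148 CPM in control females, 0.0613 CPM in SIR males and 0.0382 CPM in control males, and was too low to be tested. Of 10 granule neuron markers tested, none was called higher in females and 1, Barhl1, was lower (log2 fold change -3.13, edgeR adjusted p = 0.0406, and 0.213 without the 8 libraries). Cbln3 (3.11 ± 4.55 CPM in SIR females, 1.38 ± 1.24 in control females) and Fat2 (1.65 ± 2.75 and 0.380 ± 0.633) were higher but not called (edgeR adjusted p = 0.191 and 0.149). Most of the summed CPM of this list came from Gabrd, Cbln1, Etv1 and Reln, so its correlations follow mainly those genes. Of 13 leptomeningeal markers tested none was called in either sex, and their sum had medians of 105 CPM in SIR females, 107 CPM in control females, 105 CPM in SIR males and 93.2 CPM in control males. In SIR females 2 of 11 choroid plexus markers and 2 of 9 mural cell markers were lower, where 2.24% of all genes were, and none of either list was called in males. Oligodendrocyte markers moved the other way from the Zic genes: 3 of 6 were lower in SIR females, 2 were higher in SIR males (0.282% of all genes were called higher in males), and all 6 had a negative interaction, where 1.08% of all genes were called (Mbp -0.57 ± 0.10, edgeR adjusted p = 0.00134). The female calls of these markers were lost without the 8 libraries, and 5 of the 6 interactions passed. The part of any list in the Zic differences was not tested. The midbrain and relay neuron sums were only entered as covariates, after the data had been seen.

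The partners and regulators of Zic proteins set beside them include genes of the Hedgehog and Wnt pathways and chromatin factors. Of 33 such genes 29 were tested, and in females 1 was higher and 1 lower, where 4.62% of all genes were called in either direction, with a median log2 fold change of 0.01 (against -0.01 over all genes). Gli1, a zinc finger factor and readout of Hedgehog signalling, had 7.19 CPM in SIR females and 5.41 CPM in control females (log2 fold change 0.41 ± 0.11, edgeR adjusted p = 0.0316), and Chd7, a chromatin remodeller, had 22.9 CPM in SIR females and 26.8 CPM in control females (-0.23 ± 0.06, edgeR adjusted p = 0.03). In males Ptch1, the Hedgehog receptor, was the single member called, where 1.33% of all genes were, at 157 CPM with SIR mothers and 185 CPM with control mothers (-0.24 ± 0.06, edgeR adjusted p = 0.0317). Gli1 (0.71 ± 0.16, edgeR adjusted p = 0.0115) and Ptch1 (0.33 ± 0.08, edgeR adjusted p = 0.0166) were the 2 members with a positive interaction, where 1.75% of all genes were called. Over both sexes Gli3 (-0.23, edgeR adjusted p = 0.0266) and Ep300 (-0.15, edgeR adjusted p = 0.0381) were lower, where 2.79% of all genes were. Without the 8 libraries the call of Ptch1 in males remained (edgeR adjusted p = 0.0359), and the others of this list did not pass, at edgeR adjusted p-values of 0.0857 (Gli1) and 0.101 (Ptch1) for the interaction, 0.441 and 0.211 for Gli1 and Chd7 in females, and 0.239 and 0.134 for Gli3 and Ep300 over both sexes.

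Other members of that list, among them the Wnt effector genes Ctnnb1, Tcf7l2 and Lef1 and the chromatin factor genes Chd4 and Smarca4, were not called in any comparison. Tcf7l2 averaged 333 CPM in SIR females, 303 CPM in control females, 300.4 CPM in SIR males and 335 CPM in control males.

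Of 16 genes reported as targets of Zic proteins in vertebrates, 13 were tested. In females 1 was higher and 1 lower, where 2.38% and 2.24% of all genes were. Wnt10a, a Wnt ligand gene, had 2.74 CPM in SIR females and 1.09 CPM in control females (log2 fold change 1.33 ± 0.23, edgeR adjusted p = 0.000991). In males it had 1.84 CPM with SIR mothers and 2.03 CPM with control mothers (-0.14 ± 0.23, edgeR adjusted p = 0.818), and the effects differed by 1.47 ± 0.32 (edgeR adjusted p = 0.00878). Wnt10a was the single member called for the interaction, where 1.75% of all genes were called with a positive one. Ccnd2, a cell cycle cyclin gene, was lower in SIR females at 22.9 CPM, against 28.5 CPM in control females (-0.32 ± 0.09, edgeR adjusted p = 0.0287). Over both sexes Wnt10a was higher (0.59, edgeR adjusted p = 0.0334), where 1.76% of all genes were. Ccnd2 (-0.25, edgeR adjusted p = 0.027) and the cell adhesion gene Nrcam (-0.12, edgeR adjusted p = 0.0362) were lower, where 2.79% of all genes were. Wnt10a was still called without the 8 libraries, in females (1.35, edgeR adjusted p = 0.0226) and for the interaction (1.40, edgeR adjusted p = 0.0327), while Ccnd2 in females (edgeR adjusted p = 0.186) and the 3 calls over both sexes (0.126 to 0.229) did not pass. None was called in males, where 1.33% of all genes were. The median over the 13 was 0.02 in females and 0.00 in males, and Atoh1, which Zic1 represses in the chick neural tube, was at 0 in every group.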

How the data were processed

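Thalamus RNA of 31 mice was measured by polyadenylated RNA-seq with a stranded mRNA kit, per the labels' protocols, and the libraries fell into 4 groups by maternal housing and sex as labelled. Per the submitters' processing notes, FastQC and kallisto were used with the build GRCm39; kallisto's version, its transcript set and its use of strand are not stated. Per the file headers, each deposited table lists 105878 transcripts with an estimated count, which is kallisto's share of the reads and carries no scaling by the authors that the values reveal. TPM values, also deposited, divide the estimated counts by effective length and were brought to 1 common total by the authors' quantification, per the file headers. The effective length, another deposited value, was not used.

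GENCODE M21, which annotates GRCm38 and not the authors' build, matched 104949 transcripts (99.12%), and the other 929 held 0.689% to 0.755% of a library's counts. Estimated counts were added up by gene and then rounded to whole numbers. Genes were filtered with filterByExpr, scaled by TMM and tested in edgeR 4.0.16 (R 4.3.3) by robust quasi-likelihood with 1 mean per group and Benjamini-Hochberg adjustment over 14886 genes, with a threshold of 0.05. The common biological coefficient of variation was 0.13. CPM values use TMM-scaled totals. A test on simulated counts was also run, with means and spreads taken from these data, and its outcome is not reported here. Pairs of libraries of 1 group differed by more than sampling noise.

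Shares of transcripts were tested by exact permutation within a sex, and by 100000 permutations within sexes for both. Correlations used log2(CPM + 1), with group means removed and 100000 permutations within groups. The 4 members were described in full. List members were named where called in any comparison, or among the 4 most abundant, and where a result turned on them; others were only counted, and a few are not reported here. The members, lists and tests were chosen with earlier results of these data known. Promoters came from RefSeq (GRCm38.p6). Alternatives were RLE scaling, no filter, DESeq2 1.42.0, limma 3.58.1 on log2(TPM + 1), libraries left out, and marker sums as covariates.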

Additional observations from a re-analysis of the deposited data

Results flagged for a closer look

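The share of Zic1 counts taken by Zic1-201 was 71.93% in control male 19, the highest of the 8 control males, whose median was 62.7%. Its gap to the next library was large against the range of the group. Chance marks about 1 in 20 groups in this way, and the share of Zic1-201 did not differ between SIR and control males beyond the spread between libraries (exact permutation p = 0.299).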

How the results depend on the processing

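No paired analysis was possible because no replicate number occurs in 2 groups. With other scaling, no filter, DESeq2 or TPM, and in each fit without 1 library, the female, male and interaction differences of the 4 Zic genes kept their sign. On log2(TPM + 1), which shrinks low genes, Zic5 had 1.06 in females and 1.5 for the interaction. Without the 8 libraries whose numbers lie apart, the female differences were 0.27, 0.60, 0.75 and 1.36 for Zic1, Zic2, Zic4 and Zic5, the interaction of Zic5 was 2.11, and Zic5 alone of the 4 was among the genes called in females. Leaving out 1 library at a time, the female difference ran from 0.24 to 0.36 for Zic1, 0.59 to 0.71 for Zic2, 0.69 to 0.83 for Zic4 and 1.40 to 1.57 for Zic5, and the interaction of Zic5 from 2.02 to 2.27. The 6 pair correlations passed under each alternative (r 0.449 to 0.850). Of the relations to marker lists, 10 passed on TPM and 16 without the 8 libraries. Those to the midbrain list passed in both for all 4 genes. Those to the lateral habenula, and that of Zic1 to the medial habenula, passed in neither. On TPM 2 more relations of Zic1 were lost, to the ependymal list (adjusted permutation p = 0.112) and to septum and striatum (0.903). The relation of Zic2 to the hypothalamus list was also lost on TPM (adjusted permutation p = 0.135). Of 24 calls of list genes in females, 2 (Wnt10a among them) passed without the 8 libraries, 14 on TPM, 15 without a filter, 14 without the 2 shallowest libraries and 9 in every fit without 1 library. Of 18 for the interaction, 12 passed without the 8 libraries and 17 in every fit without 1 library. Of 6 in males, 6 passed without the 8 libraries, 1 on TPM, 1 without a filter and 0 in every fit without 1 library. Of 12 over both sexes, 0 passed without the 8 libraries and 4 in every fit without 1 library. None of these 60 calls changed sign.

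Counts of genes called over all genes moved more, and the cause was not tested. In females they were 270 on TPM, 458 without the 2 shallowest libraries and 45 without the 8 libraries, and 360 to 829 without single libraries (688 with all). In males they were 79 without a filter, 606 by DESeq2, 93 on TPM, 379 without the shallowest libraries and 542 without the 8, and 0 (2193 genes at an unadjusted p under 0.05, without control male 22) to 506 (without control male 27) without single libraries (198 with all). Over both sexes they were 382 without a filter, 1132 by DESeq2, 312 on TPM, 392 without the shallowest and 0 without the 8 (2031 at an unadjusted p under 0.05), and 220 to 1042 without single libraries (678 with all). For the interaction they were 223 on TPM (422 with all). Depth limits Zic5 most, with 33 counts in its lowest library.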
